A study of Mus musculus with 12 samples.

Results

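H3K27me3 was compared between the mouse forelimb bud at embryonic stage E10.5 and the distal part of the forelimb 1 day later, at E11.5. The comparison asks which domains of this histone mark were called at both stages, which changed in extent and which were called at 1 stage only. All autosomal peaks of both lists were used, 15077 at E10.5 and 19624 at E11.5, or 34701 of the 189536 peaks in the 7 peak lists of the series. The E10.5 library came from forelimb buds of CD1 embryos, and its antibody was supplied by Cell Signaling. The E11.5 library came from distal forelimbs of wild-type embryos with a mixed C57BL/6 and CD1 background, and its antibody was supplied by Millipore. H3K27ac, HOXA13 and HOXD13 peaks of E11.5 wild-type distal forelimbs were laid over both lists. The antibodies to both HOX proteins were raised by the laboratory itself, and chromatin for HOXA13 was fixed with disuccinimidyl glutarate and formaldehyde. H3K27me3 and H3K27ac peaks of E11.5 distal forelimbs lacking both HOX proteins (Hoxa13-/-;Hoxd13-/-, of mixed background too) were set beside them. In these embryos Hoxa13 is interrupted by a neomycin cassette within the coding sequence and Hoxd13 by lacZ in exon 1. Each stage is 1 library, and the labels do not give the number or sex of the embryos behind it. No difference could therefore be tested against replicates, and intervals below cover the counting of peaks only. Stage cannot be told apart from strain, antibody and part of the limb, all of which differ between the libraries, and read depth is unknown.

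H3K27me3 is placed on nucleosomes by Polycomb repressive complex 2 and marks genes and their surroundings that are kept silent. It often covers developmental regulators, the Hox clusters among them, in broad domains, and is removed from genes as they are switched on. H3K27ac sits on the same lysine of the histone tail and marks active enhancers and promoters, so a single histone tail carries either one or the other. In tissue made of many cells, peaks of both marks at 1 place may come from different cells or alleles. HOXA13 and HOXD13, here together HOX13, bind DNA through a homeodomain and direct the growth of the digits. In the text, a peak called lost was present at E10.5 with no overlapping E11.5 peak, and a peak called new was present at E11.5 with no overlapping E10.5 peak; the words describe calls in these lists.

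Most of the sequence called at E10.5 was called again at E11.5, while E11.5 covered far more. E10.5 peaks covered 50.2 Mb and E11.5 peaks 74.3 Mb of the autosomes. The 42.8 Mb called at both stages made up 85.3% of the E10.5 sequence and 57.7% of the E11.5 sequence. Of E10.5 peaks, 2055 of 15077 were lost (13.6%, 95% Wilson interval 13.1 to 14.2%), and they held 3.85 Mb, or 7.67% of the E10.5 sequence. Of E11.5 peaks, 9857 of 19624 were new (50.2%, 49.5 to 50.9%), and they held 19.3 Mb, or 26.0% of the E11.5 sequence. Kept E10.5 peaks were mostly overlaid in full: 74.9% had at least 90% of their length inside E11.5 peaks. Kept E11.5 peaks extended further, and the median one was covered over 83.4% of its length by E10.5 peaks.

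The kept peaks fell into 4 kinds of domain. In 5963 domains 1 E10.5 peak matched 1 E11.5 peak (one-to-one). In 2575 domains several E10.5 peaks lay under 1 E11.5 peak (joined), and these took in 6000 E10.5 peaks, about as many as the one-to-one domains. In 266 domains 1 E10.5 peak was met by several E11.5 peaks (split), and 292 domains held several peaks of both stages. Joined domains were the broad ones at E11.5, partly by definition, since 1 peak spans several E10.5 peaks and the gaps between them. The E10.5 peaks in them had a median width of 2662 bp, against 2386 bp in one-to-one domains. Their E11.5 peaks had a median width of 7290 bp, against 3106 bp for one-to-one domains, and 80.7% of them had the score 3100, against 31.9%. This score is what the peak caller wrote at the end of its range, so it ranks as the highest class of each list, with 4432 E11.5 peaks and 279 E10.5 peaks in it.

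Calls made at 1 stage were concentrated among weak peaks, more sharply at E10.5 than at E11.5. The score is used here only to rank peaks within their own list. In the lowest score decile of the E10.5 list 39.7% of peaks were lost, in the fifth 11.7%, and in the tenth 0.0676%, a single peak. None of the 279 E10.5 peaks at the score 3100 was lost, which allows a share of up to 1.08% by a floor of 3 counts and up to 1.36% by the Wilson interval. The share of new peaks among E11.5 peaks fell more slowly, from 85.5% in the lowest decile to 73.4% in the fifth and 23.8% in the tenth. It was 3.66% at the score 3100, or 162 of 4432 peaks. Above the median score of each list, 151 of 7539 E10.5 peaks were lost (interval 1.71 to 2.34%) and 2292 of 9812 E11.5 peaks were new (23.4%, 22.5 to 24.2%). The E11.5 list therefore held peaks of high rank with no E10.5 counterpart, and the E10.5 list held few of the reverse kind.

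**Figure D1:**
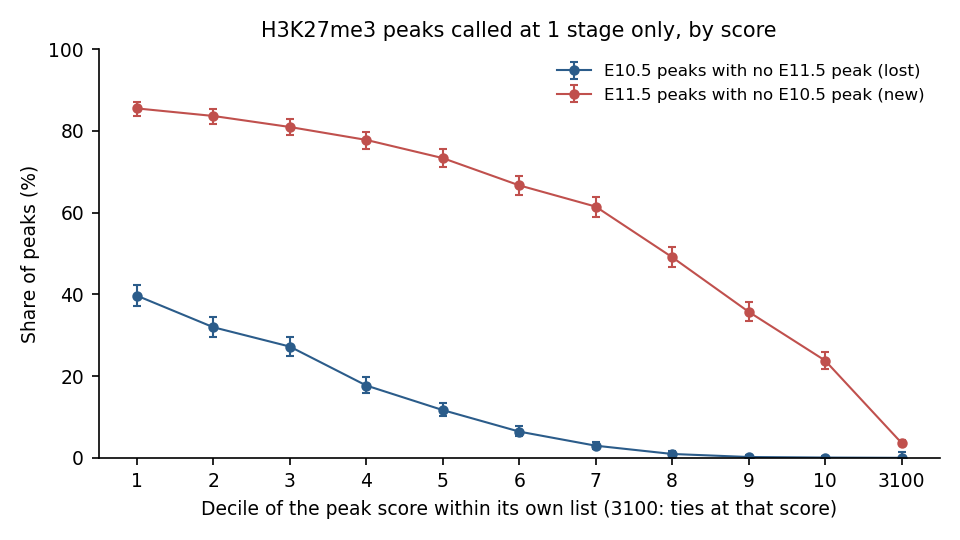
Share of H3K27me3 peaks called at 1 stage only, in % on the vertical axis, against the score decile within each list on the horizontal axis, with ties at 3100 as a class of their own. Points are shares and bars 95% Wilson intervals; lost E10.5 peaks (blue) fall from 39.7% to 0, and new E11.5 peaks (red) from 85.5% to 3.66%.

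Above 1 kb, calls at 1 stage also became rarer with width. The median lost peak was 1611 bp wide and the median new peak 1458 bp. By width, 27 of 207 E10.5 peaks under 1 kb were lost (9.12 to 18.3%), 25.4% of those of 1 to 2 kb, 9.12% of those of 2 to 4 kb, 2.32% of those of 4 to 8 kb and 0.579% of those of 8 kb or more. New peaks made up 85.5%, 74.0%, 43.4%, 16.2% and 6.98% of E11.5 peaks in the same classes. Within score classes the relation with width had no single direction. In the lowest score quintile of E10.5, 37.4% of peaks of 1 to 2 kb (35.6 to 39.2%) and 29.6% of those of 2 to 4 kb (22.7 to 37.5%) were lost. From the second quintile to the fourth, the lost share rose with width over the classes given here. In the second it was 21.0% at 1 to 2 kb (19.3 to 22.9%) and 26.45% at 2 to 4 kb (23.7 to 29.4%). In the third it was 2.655% (1.74 to 4.02%) and 11.3% (9.975 to 12.7%) at these widths, and 15.8% at 4 to 8 kb (10.2 to 23.6%). In the fourth quintile, 0.885% of peaks of 2 to 4 kb were lost (17 of 1922) and 4.81% of those of 4 to 8 kb (37 of 770), with intervals that do not overlap (0.553 to 1.41% and 3.51 to 6.55%). In the third score quintile of E11.5 the intervals overlapped. New peaks made up 83.3% under 1 kb (69.4 to 91.7%, n = 42), 70.4% at 1 to 2 kb (68.4 to 72.3%) and 68.5% at 2 to 4 kb (65.4 to 71.5%). In the fourth they fell from 88.0% under 1 kb (70.0 to 95.8%, n = 25) to 55.2% at 1 to 2 kb (51.2 to 59.2%). In the fifth they were 80% under 1 kb (49.0 to 94.3%, n = 10) and 35.9% at 1 to 2 kb (26.15 to 47.0%, n = 78). From 24.6% at 2 to 4 kb (22.6 to 26.7%) they then rose to 36.4% at 4 to 8 kb (33.6 to 39.3%). At 8 kb or more they were 32.7% (26.0 to 40.2%).

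Domains matched one-to-one were mostly wider at E11.5. The E11.5 peak was the wider one in 67.9% of them, and the median ratio of widths was 1.16 (interval of the median 1.14 to 1.17). With a limit of 1.5 times in either direction, 1603 of 5963 widened (26.9%), 534 narrowed (8.96%) and 3826 stayed between. In 84.8% of the widened domains the E11.5 peak reached past the E10.5 peak on either side. The share was 46.25% in all one-to-one domains and 36.6% in those of similar width. Choosing domains by their width ratio gives part of this difference by construction. Widening was strongest for narrow peaks. The median ratio was 2.02 for E10.5 peaks under 1 kb, 1.38 at 1 to 2 kb, 1.13 at 2 to 4 kb, 1.06 at 4 to 8 kb and 1.04 at 8 kb or more. The E10.5 width is the denominator of this ratio, so sorting by it gives part of the slope by construction. Widened domains had a median width of 1721 bp at E10.5 and 3723 bp at E11.5, and narrowed domains 2540 and 1190 bp. Both groups also differed in what else lay on them. Widened domains overlapped E11.5 H3K27ac in 35.4% (33.1 to 37.7%), domains of similar width in 31.1% (29.7 to 32.6%) and narrowed ones in 20.2% (17.0 to 23.8%), beside 22.8% of all E11.5 peaks. Widened domains were called in the double mutant in 94.8%, those of similar width in 88.5% and narrowed ones in 50.6%. The share was 86.8% for all one-to-one E11.5 peaks and 69.6% for all E11.5 peaks. The H3K27ac and double-mutant lists are separate libraries, but a wider E11.5 peak has more room to overlap any of them. Widened domains also had a higher median E11.5 score than narrowed ones, 1643 against 108.5, and the part of score in these shares was not tested.

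**Figure D2:**
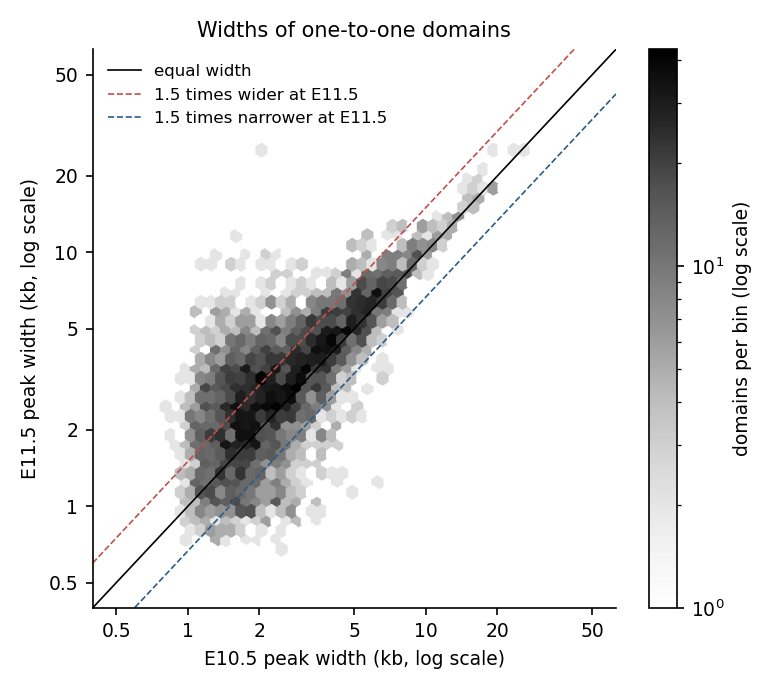
Width of the E11.5 peak against width of the E10.5 peak for the 5963 one-to-one domains, both in kb on log scales. Shading gives the number of domains per bin on a log scale; the cloud lies above the line of equal width for narrow peaks and closes in on it for wide ones, with 1603 domains above the upper dashed line and 534 below the lower one.

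The widened domain with the largest gain in length reached the size of the widest new peaks at E11.5, and the next ones were smaller than these. On chromosome 2 (chr2:114934717-114967837, mm9) an E10.5 peak with the low score 64.7 covered 4.71% of an E11.5 peak of 33121 bp. On chromosome 12 (chr12:32843218-32868815) the E10.5 peak covered 8.06% of an E11.5 peak of 25598 bp, and on chromosome 17 (chr17:83462886-83487465) it covered 8.58% of 24580 bp. All 3 E11.5 peaks had the score 3100, and the double mutant covered between 79.0% and 100% of them. The domain on chromosome 2 lies in one of the windows richest in new peaks, described below. Narrowing took smaller steps. The domain with the largest drop (chr14:23022776-23033797) spanned 11022 bp, of which the E10.5 peak covered 98.7% and the E11.5 peak 35.4%. In the next, on chromosomes 12 and 10, the E11.5 peak was left with 28.6% (chr12:74831813-74841138) and 26.5% (chr10:61397043-61405602) of the E10.5 peak. No H3K27ac peak of the wild type lay in any of these 3 narrowed domains. The positions are those of the deposited lists; an mm9 gene annotation was not used here, so no genes are named.

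Joining was far more frequent than splitting, with 2575 domains against 266. Most joined domains brought together 2 E10.5 peaks (2049, or 79.6%), 356 brought together 3, and 59 brought together 5 or more. The gaps they closed were short, with a median of 279 bp over 3425 gaps. Splits were as fine-grained: 238 of 266 gave 2 pieces, and the 305 gaps they opened had a median of 217 bp. The total width hardly moved in split domains, where the ratio of E11.5 to E10.5 sequence had a median of 0.975 (0.945 to 1.04), while in joined domains it was 1.15 (1.14 to 1.16). The gaps count as sequence only at the stage with the single peak, which pushes these ratios apart by construction. The largest joined domain on chromosome 2 (chr2:74479846-74605456) spanned 125611 bp as 1 peak at E11.5 and 18 peaks at E10.5, which covered 61.2% of it. H3K27ac peaks of the same E11.5 tissue covered 52.6% of that span. The domain on chromosome 15 (chr15:102725117-102906289), the widest peak of the E11.5 list at 181173 bp, held 15 E10.5 peaks over 86.1% of its length, and H3K27ac covered 4.03%. The domain on chromosome 8 (chr8:94303027-94367765) held 13 E10.5 peaks over 63.8% of 64739 bp with no H3K27ac peak.

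Per base pair, H3K27ac was most frequent in the gaps that E11.5 peaks closed, among the kinds of H3K27me3 sequence compared. Of 3926 gaps between E10.5 peaks that lay inside an E11.5 H3K27me3 peak, 964 held E11.5 H3K27ac (24.6%, 23.2 to 25.9%), beside 22.8% of all E11.5 H3K27me3 peaks and 31.4% of kept ones, which are far longer. By sequence, 21.9% of the 2.11 Mb in these gaps lay in H3K27ac peaks, against 6.76% of the sequence called H3K27me3 at both stages, 9.32% of the E11.5-only edges of kept domains and 7.54% of new peaks. The reverse kind of gap was different. Of 671 gaps between E11.5 peaks that an E10.5 peak had covered, 37 held H3K27ac (5.51%, 4.03 to 7.51%), or 4.08% of their sequence. The sequence that H3K27me3 peaks filled in at E11.5 thus held more H3K27ac calls than the domains around it, and the sequence between E11.5 peaks did not. The acetylated gaps were spread over 882 of the 2924 E11.5 peaks with such gaps. Without the 3 joined domains of most pieces the share of gap sequence in H3K27ac was 22.1%. Short and long gaps both showed it, with H3K27ac in 22.3% of gaps under 500 bp and 30.2% of longer ones. HOXA13 and HOXD13 peaks moved with it: HOXA13 peaks covered 9.49% of the gap sequence and 3.05% of the sequence called at both stages, and HOXD13 peaks 9.07% and 2.50%.

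The excess of H3K27ac followed the gaps of the E10.5 list. Gaps between E10.5 peaks inside double-mutant H3K27me3 peaks held wild-type H3K27ac in 829 of 3323 cases (interval 23.5 to 26.4%). Gaps between double-mutant peaks inside wild-type peaks, which compare libraries of 1 stage made with 1 antibody, held it in 238 of 2991 cases (7.96%, 7.04 to 8.98%), and gaps between wild-type peaks inside double-mutant peaks in 43 of 681 (6.31%, 4.72 to 8.40%). Both comparisons that start from E10.5 gaps share the E10.5 library, and its antibody, strain and depth cannot be told apart from its stage. What these data show is that short breaks in the E10.5 peaks coincided with E11.5 H3K27ac peaks more often than breaks in either E11.5 list did.

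**Figure D3:**
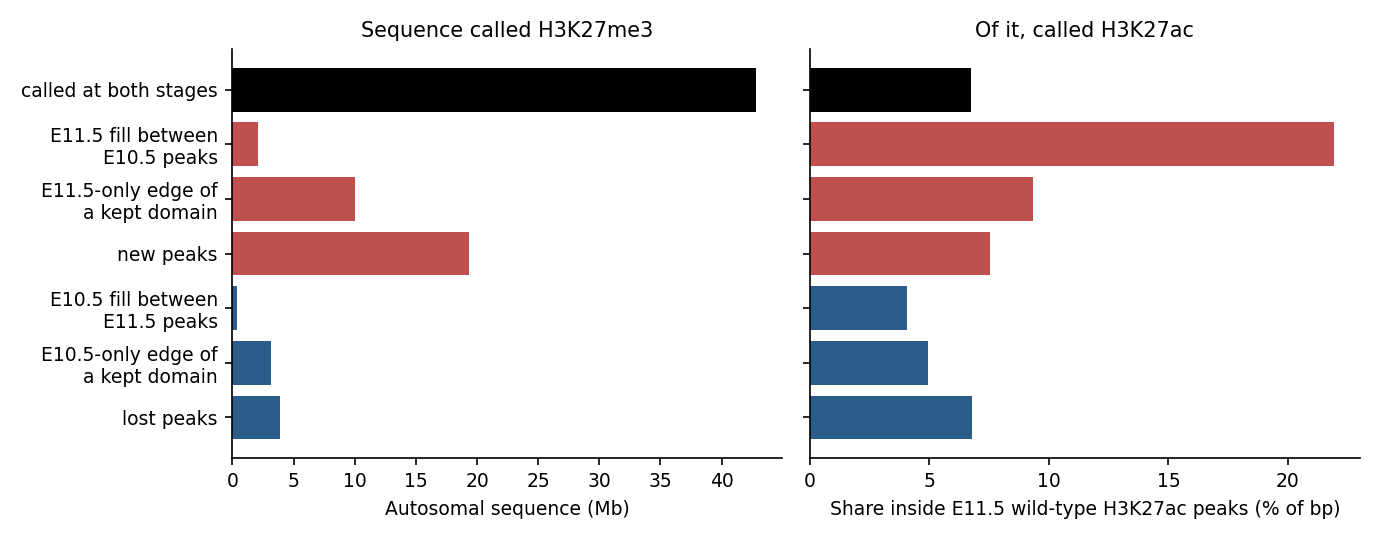
Left, autosomal sequence in Mb by how H3K27me3 peaks of both stages cover it; right, the share of that sequence inside E11.5 wild-type H3K27ac peaks, in % of base pairs. Black is called at both stages, red at E11.5 only and blue at E10.5 only; the fill between E10.5 peaks is small (2.11 Mb) and stands out with 21.9% in H3K27ac.

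Lost peaks overlapped E11.5 H3K27ac less often than kept ones, but not over less of their sequence. Of 2055 lost peaks, 381 overlapped an E11.5 H3K27ac peak (18.5%, 16.9 to 20.3%), below the 29.3% (28.5 to 30.1%) of kept E10.5 peaks and the 27.8% of all E10.5 peaks. The order was the same at matched width: 18.8% of lost and 29.4% of kept peaks of 1 to 2 kb overlapped H3K27ac, and 17.4% and 31.7% of those of 2 to 4 kb. At 4 to 8 kb the shares were 23.3% and 24.0%, with an interval of 14.4 to 35.4% for the 60 lost peaks, and no difference could be made out. By sequence the sets hardly differed, with 6.77% of lost and 6.61% of kept E10.5 sequence in H3K27ac. Peaks that did overlap H3K27ac were covered over a median of 38.8% if lost and 33.7% if kept at 1 to 2 kb, and 27.7% and 21.4% at 2 to 4 kb. Coverage of 50% or more had overlapping intervals in both sets, at 5.49% of lost (4.43 to 6.79%) and 6.61% of kept peaks (5.90 to 7.40%) of 1 to 2 kb and 2.86% (1.74 to 4.67%) and 2.62% (2.22 to 3.09%) at 2 to 4 kb. The H3K27ac peaks at lost peaks had a median score of 555, those at kept E10.5 peaks 317. The median was 337 for the whole H3K27ac list, 705 at new peaks and 311 at kept E11.5 peaks.

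The lost peaks named for the highest numeric H3K27ac scores varied in strength. On chromosome 15 (chr15:76034626-76041043) a lost peak of 6418 bp and score 545 lay under 2 H3K27ac peaks, which covered 72.3% of it and reached the score 3100. On chromosome 1 (chr1:72868857-72870639) a weak lost peak of 1783 bp and score 65.7 was covered over 34.0% by an H3K27ac peak of score 3209, and on chromosome 3 (chr3:83565548-83568229) a lost peak of 2682 bp was covered over 27.7%. All 3 places were acetylated in the double mutant too, over 44.4%, 61.9% and 42.5% of the peak on chromosomes 1, 15 and 3. This was common among peaks with wild-type H3K27ac. Double-mutant H3K27ac overlapped 358 of the 381 such lost peaks (94.0%) and 95.1% of all such E10.5 peaks. None of the 3 was called H3K27me3 in the double mutant. Lost peaks as a whole were called in the double mutant in 211 of 2055 cases (10.3%, 9.03 to 11.7%). The share was 80.5% for all E10.5 peaks and 91.6% for kept ones. Lost peaks are by definition those without a wild-type E11.5 call, and most were weak.

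New peaks overlapped H3K27ac in 1409 of 9857 cases (14.3%, 13.6 to 15.0%), below the 31.4% (30.5 to 32.4%) of kept E11.5 peaks and the 22.8% of all. This too held by width, with 14.5% of new and 26.2% of kept peaks at 1 to 2 kb, 18.5% and 34.8% at 2 to 4 kb and 17.8% and 33.1% at 4 to 8 kb. By sequence the sets were close, with 7.54% of new and 7.81% of kept E11.5 sequence in H3K27ac. At 8 kb or more the intervals met, at 23.7% (17.2 to 31.6%) and 31.7% (29.5 to 33.9%). Coverage of 50% or more was found in 689 new peaks (6.99%) and 532 kept E11.5 peaks (5.45%). At 1 to 2 kb the order was the reverse, at 7.91% of new (7.19 to 8.71%) and 11.7% of kept peaks (10.3 to 13.3%). The new peaks named for the highest numeric H3K27ac scores, which lie between 3216 and 3221 and so below the class at 3100 in rank, were narrow. A new peak on chromosome 16 (chr16:21204736-21206120) of 1385 bp and score 105 lay wholly inside H3K27ac, and others on chromosomes 7 (chr7:72514265-72515570) and 16 (chr16:78302509-78303956) were covered over 56.2% and 48.3%.

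**Figure D4:**
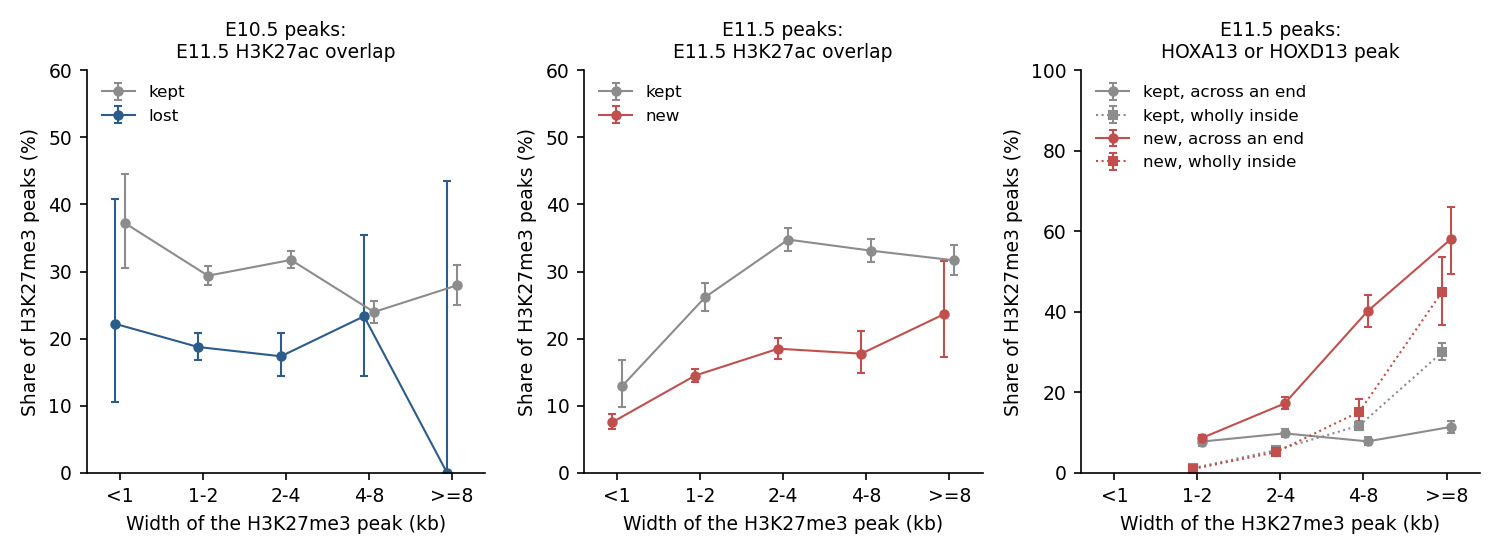
Share of H3K27me3 peaks, in %, that overlapped E11.5 H3K27ac (left and middle) or a HOXA13 or HOXD13 peak (right), against the width class of the H3K27me3 peak in kb; bars are 95% Wilson intervals. Lost (blue) and new (red) peaks met H3K27ac less often than kept peaks (grey) at most widths; on the right, HOX13 peaks lying across an end (solid) were found at 58.0% of new and 11.4% of kept peaks of 8 kb or more, while shares wholly inside (dotted) were closer.

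Wide new peaks stood apart in where HOX13 peaks lay. Among new peaks of 4 kb or more, 55.3% overlapped a HOXA13 or HOXD13 peak (51.6 to 58.9%, n = 711), against 24.5% of kept E11.5 peaks (23.3 to 25.8%, n = 4742). At 8 kb or more the shares were 107 of 131 new peaks (81.7%, 74.2 to 87.4%) and 36.0% of kept ones (33.8 to 38.3%), while at 1 to 2 kb they were 9.49% and 8.77%. The difference lay mostly at the ends of the peaks. HOX13 peaks that crossed an end were found at 43.5% (39.9 to 47.1%) of new and 9.13% (8.34 to 9.98%) of kept peaks of 4 kb or more, and HOX13 peaks wholly inside at 20.7% (17.9 to 23.8%) and 18.5% (17.4 to 19.6%). At 8 kb or more the shares wholly inside did differ, with 59 of 131 new (36.8 to 53.6%) and 524 of 1746 kept peaks (27.9 to 32.2%). Of the overlaps of HOXA13 with these new peaks 63.1% crossed an end, against 25.6% with kept peaks, and of those of HOXD13 69.2% and 30.7%. The crossing peaks were strong ones. At new peaks their median score was 669 for HOXA13 and 542 for HOXD13, and those wholly inside had 142 and 172. The order was the same at kept peaks, with 303 and 267 for crossing peaks and 118 and 136 for those inside. The medians of the whole lists were 126 and 134.

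Many of these HOX13 peaks filled the notch between neighbouring H3K27me3 peaks. Of 243 HOXA13 peaks across an end of a wide new peak, 138 touched 2 E11.5 H3K27me3 peaks (56.8%), and of 226 HOXD13 peaks 143 did (63.3%). At kept peaks the same held for 115 of 350 HOXA13 peaks (32.9%) and 122 of 333 HOXD13 peaks (36.6%). Of all crossing peaks, 25.5% of the HOXA13 and 25.2% of the HOXD13 peaks at new ends overlapped H3K27ac, against 41.1% and 47.1% at kept ends. Of those touching 2 E11.5 peaks, 21.7% of HOXA13 and 21.7% of HOXD13 peaks did at new ends, and 41.7% and 48.4% at kept ends. The share among all HOXA13 or HOXD13 peaks is not given here. In the double mutant, 38 of the 138 HOXA13 peaks that touched 2 wild-type H3K27me3 peaks at new ends also touched 2 or more mutant ones, 31 touched 1 and 69 touched none. For the 143 HOXD13 peaks the counts were 37, 31 and 75. At kept ends they were 48, 46 and 21 for the 115 HOXA13 peaks and 57, 43 and 22 for the 122 HOXD13 peaks. New peaks were themselves called less often in the double mutant than kept ones, at 78.6% and 99.3% for widths of 4 to 8 kb. The part of this in the counts was not tested. HOXA13 and HOXD13 were mapped in the same wild-type tissue as the new peaks, and the E10.5 bud was not mapped for them here. The overlap count leans on this position: when at least 50% of either peak had to be shared, 25.5% of wide new and 20.8% of wide kept peaks met a HOX13 peak.

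The 3 widest new peaks were broad domains without H3K27ac that the double mutant largely shared. Most wide new peaks were alike in this. Of the 131 new peaks of 8 kb or more, 82.4% were called in the double mutant and 23.7% overlapped wild-type H3K27ac. On chromosome 8 (chr8:116228557-116261614) the new peak measured 33058 bp and double-mutant peaks covered 81.6% of it. On chromosome 11 (chr11:18817153-18848321) it measured 31169 bp, with 99.6% covered, and on chromosome 13 (chr13:53886777-53916958) 30182 bp, with 100% covered. All 3 had the score 3100, and no H3K27ac peak of either genotype lay in them. The new peak on chromosome 13 belonged to a stretch of 425 kb (chr13:53786777-54211742), chosen because several named regions fell in it, with 32 E11.5 peaks over 154 kb. Of these, 27 were new and made up 117 kb, and E10.5 had 6 peaks over 13.4 kb there. The second of the named new peaks in that stretch (chr13:54102130-54111742, score 3218) measured 9613 bp, and double-mutant peaks covered 95.7% of it. A peak of 10442 bp on chromosome 12 (chr12:104144142-104154583, score 3203) was covered in full. These 2 were named for the highest numeric score among new peaks, although the 162 new peaks at 3100 rank above them, and neither held H3K27ac. The remaining one of that kind measured 3383 bp, and H3K27ac of score 3100 covered 54.8% of it.

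Of the 3 lost peaks with the highest scores, 2 were neighbours. On chromosome 14, lost peaks of 6644 bp (chr14:30952204-30958847, score 1496) and 8161 bp (chr14:30943698-30951858, score 750) lay side by side, and the first was the only lost peak in the highest decile of E10.5 scores. Neither the wild type nor the double mutant had an H3K27me3 peak in the 215 kb around them (chr14:30843698-31058847). No H3K27ac peak lay on the lost peaks, and the single wild-type H3K27ac peak of that stretch was at a distance from them. On chromosome 6 (chr6:100364237-100371518) a lost peak of 7282 bp and score 771 was covered over 20.8% by 2 H3K27ac peaks. It sat in a stretch (chr6:100264237-100494320) where 20 of 26 E10.5 peaks were lost and E10.5 sequence of 84.6 kb stood against 20.2 kb at E11.5. Close by, an E10.5 peak of 18709 bp (chr6:100375612-100394320) was split into 4 E11.5 pieces that covered 40.9% of it. The widest lost peak (chr13:71791893-71803286) measured 11394 bp, and on chromosome 12 a lost peak of 8137 bp (chr12:74823119-74831255) lay beside the narrowed domain described above.

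The most finely split domains lay side by side on chromosome 9. An E10.5 peak of 31339 bp (chr9:36806516-36837854) was met by 5 E11.5 pieces over 77.3% of its length, and an E10.5 peak of 14374 bp (chr9:36838279-36852652) by 5 pieces over 42.2%. H3K27ac covered 9.84% of the first and 6.35% of the second. The double mutant covered 48.0% of the first, and had no H3K27me3 peak in the second. In the 246 kb around them (chr9:36706516-36952652), E10.5 had 28 peaks over 155 kb, wild-type E11.5 34 peaks over 120 kb and the double mutant 20 peaks over 37.9 kb.

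**Figure D5:**
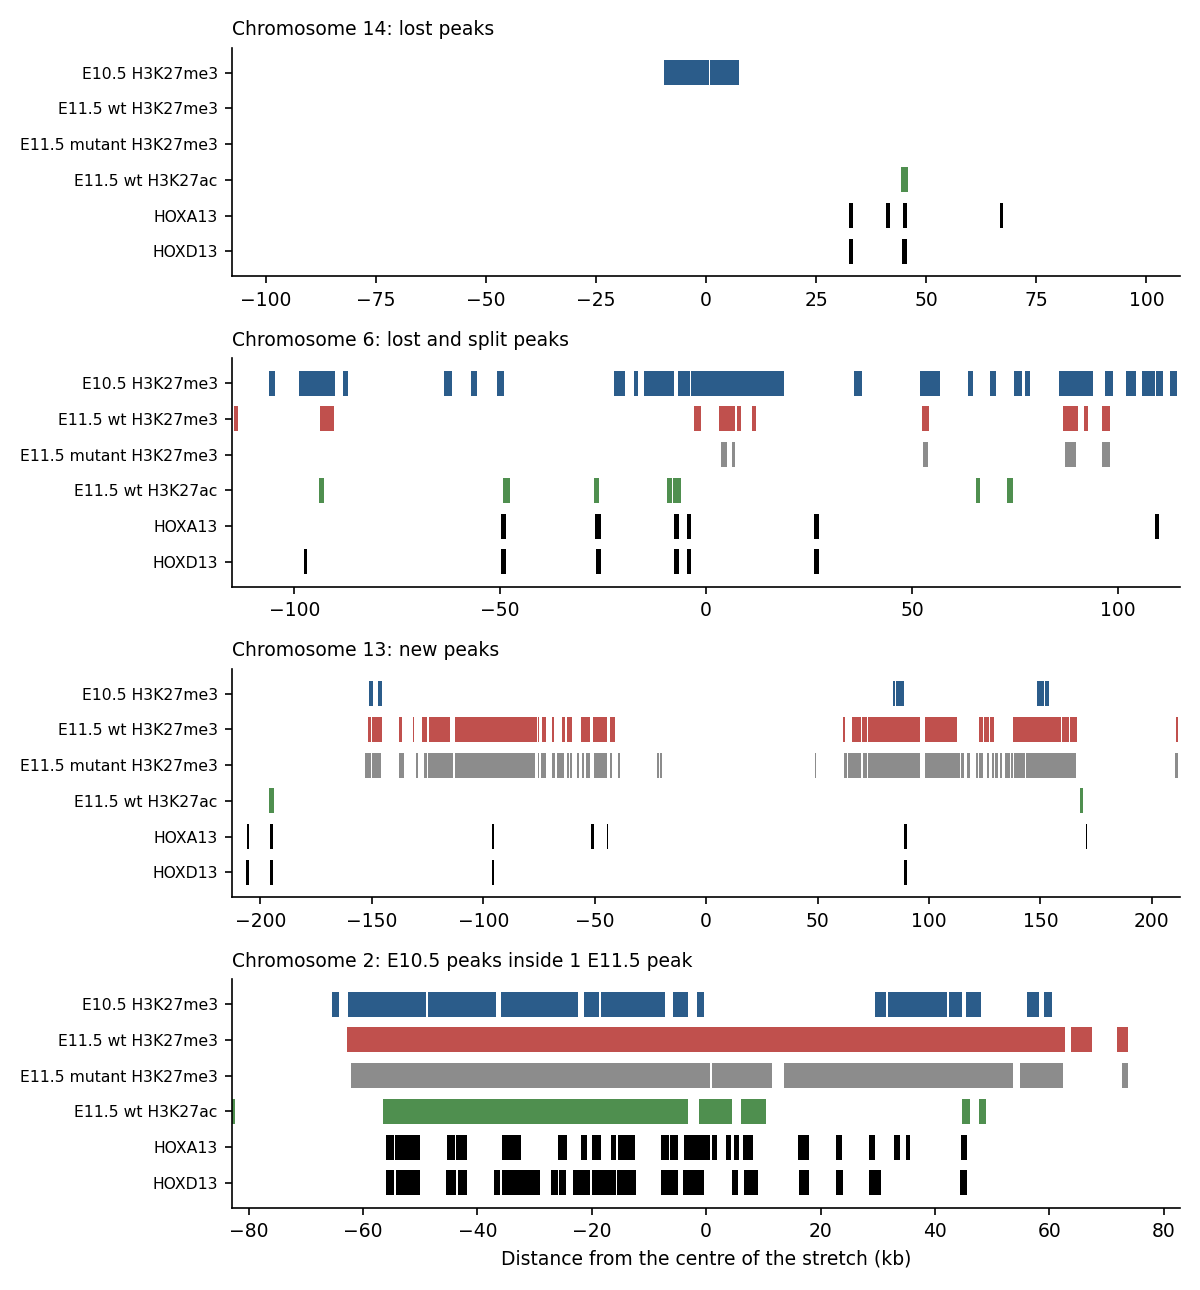
Peaks of 6 lists along 4 stretches, as distance in kb from the centre of each stretch; every bar is 1 peak, and height has no meaning. Lost peaks with no E11.5 H3K27me3 on chromosome 14, 20 lost peaks of 26 on chromosome 6, 27 new peaks of 32 on chromosome 13, and 18 E10.5 peaks under 1 E11.5 peak on chromosome 2.

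Lost and new peaks both lay farther from kept peaks than kept peaks lay from each other. Within the E10.5 list, the nearest kept peak was at a median of 9412 bp from a lost peak and 761 bp from a kept one, and within the E11.5 list at 32299 bp from a new peak and 11801 bp from a kept one. Of the 13022 kept E10.5 peaks, 6000 lay in joined domains, where each has a kept neighbour by definition. Part of the E10.5 contrast is therefore built in. The median distance from a lost peak to the nearest E11.5 peak was 5517 bp, with 48.1% within 5 kb and 15.5% beyond 50 kb. From a new peak to the nearest E10.5 peak it was 29163 bp, with 24.1% within 5 kb and 41.0% beyond 50 kb. Isolated lost peaks were more often acetylated: 15.2% (13.1 to 17.6%) of those within 5 kb of an E11.5 peak overlapped H3K27ac, 19.1% (16.5 to 22.1%) of those at 5 to 50 kb and 27.6% (23.0 to 32.7%) of those beyond. New peaks had 12.1%, 10.7% and 18.6% in the same classes, and isolated new peaks also met HOX13 peaks more often (19.6%, 18.4 to 20.9%) than those within 5 kb (10.6%, 9.43 to 11.9%). Lost peaks had similar widths in the nearest and most isolated classes (medians 1605 and 1608 bp). New peaks were wider and of higher score when isolated, with medians of 1307, 1491 and 1551 bp and scores of 122, 150 and 169 over the 3 classes, and the part of this in their overlaps was not tested.

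Both kinds of call occurred on every autosome and piled up at some places. New peaks made up between 43.0% (chromosome 19) and 57.8% (chromosome 13) of E11.5 peaks, and lost peaks between 7.30% (chromosome 3) and 19.4% (chromosome 14) of E10.5 peaks. Every autosome had more H3K27me3 sequence at E11.5, by 1.28 to 1.81 times. In windows of 1 Mb, new peaks were found in 1770 of 2022 windows with E11.5 peaks and lost peaks in 688 of 1781 windows with E10.5 peaks. The most new peaks in a window were 65 of 84 on chromosome 5 between 119 and 120 Mb. The next 2 windows adjoined each other on chromosome 2, with 44 of 47 peaks new between 114 and 115 Mb and 46 of 48 between 115 and 116 Mb. Over that pair of windows E10.5 had 8.93 and 10.9 kb of H3K27me3 and E11.5 248 and 204 kb. Lost peaks were most numerous on chromosome 6 between 100 and 101 Mb (29 of 69), on chromosome 17 between 86 and 87 Mb (27 of 47) and on chromosome 8 between 123 and 124 Mb (27 of 103).

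A comparison within E11.5 gives a scale for these differences, as far as lists can. Between double-mutant and wild-type distal forelimbs, of 1 stage and 1 antibody, 15.8% of double-mutant and 30.4% of wild-type peaks had no counterpart, and the sequence called in both was 68.8% of that called in either. Between E10.5 and E11.5 wild type it was 52.5%, and between E10.5 and the double mutant 54.5%. The median width ratio was 1.17 (1.17 to 1.18) from double mutant to wild type, 1.16 from E10.5 to wild type, and 0.997 (0.985 to 1.00) from E10.5 to double mutant. The median widening from E10.5 to wild-type E11.5 was thus about that between the E11.5 genotypes. By the limit of 1.5 times, 26.9% widened and 8.96% narrowed from E10.5 to wild type, 15.0% and 19.3% from E10.5 to double mutant, and 24.5% and 2.66% from double mutant to wild type. Joined domains outnumbered split ones in each pair, with 2575 and 266, 2094 and 607, and 1992 and 306 in the order E10.5 to wild type, E10.5 to double mutant and double mutant to wild type. These comparisons share libraries with each other. Of new peaks, 5002 of 9857 were called in the double mutant as well (50.7%, 49.8 to 51.7%), from 22.9% in the lowest score decile of E11.5 to 87.7% at the score 3100. New peaks without a double-mutant call were narrow and weak, with a median width of 1186 bp and a median score of 99.2, against 1874 bp and 255 for those with one.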

How the data were processed

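Each list gives chromosome, start, end, name and score per peak, as deposited by the authors. Alignment used Bowtie 0.12.7 on mm9 and peak calling MACS 1.4, per the submitters' processing notes. Each list is named for a library and an input. The input libraries are titled for H3K27ac of both genotypes, HOXA13, HOXD13 and E10.5 H3K27me3. None is titled for E11.5 H3K27me3, so the labels do not give which input served those lists. The deposited score is read as the caller's -10 log10 of a p-value, since the lowest score is 50; it moves with depth and was used within a list only. Some peaks of each list lie beyond 195471971 bp of chromosome 1, where that chromosome ends in GRCm38, the build of the annotation at hand; no genes or sequences were therefore assigned. Coordinates are 1-based. The 5 input libraries were not used.

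Peaks overlapping by at least 1 bp were linked into domains, and overlaps, widths and gaps were computed with Python 3.11.15, numpy 2.4.6, pandas 2.3.3 and scipy 1.17.1 after checks on simulated lists. Groups follow the sample titles. With 1 library per group no test was made; intervals are 95% Wilson intervals, and order-statistic intervals for medians. Regions were named by rule: the 3 of highest numeric score (3100 taken as written), greatest width, largest gain or drop, most pieces or highest numeric H3K27ac score in each class; the position of 1 of them is not reported here. Members, lists and rules were chosen with earlier results of these data known, and the gaps, peak ends, windows and stretches after seeing these values. Other score, overlap and joining settings were tried (below).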

Additional observations from a re-analysis of the deposited data

How the results depend on the processing

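No paired analysis was possible because each group holds 1 library. For the same reason leaving out a replicate was not possible, and read depth, which is unknown, limits every count of lost and new peaks. Of 73 recomputed values, 18 lay within the interval of the main value (or 1.5 times for counts of domains) and 55 did not. Lost peaks were 6.32% with scores of 100 or more in every list, 4.98% with that limit on E10.5 peaks only, 15.5% with 50% overlap, 17.0% with equal list lengths, 14.3% and 11.2% with peaks joined over 1000 and 5000 bp, and 11.02% with a tolerance of 1000 bp. New peaks in this order of settings were 54.2%, 41.6%, 51.4%, 40.2%, 45.9%, 40.6% and 46.2%. H3K27ac was met by 21.0%, 23.7%, 6.63%, 24.9% (5000 bp) and 27.2% (tolerance) of lost peaks, by 26.2%, 31.6%, 10.8%, 32.2%, 37.1% and 33.4% of kept E10.5 peaks (equal lengths left out), and by 17.7%, 17.3%, 9.26%, 17.9%, 16.2%, 21.0% and 17.6% of new peaks. Lost peaks stayed below kept E10.5 peaks under each setting. Wide new peaks met HOX13 peaks in 43.3% (score), 25.5% (50% overlap), 50.1% and 60.2% (joined) and 66.6% (tolerance), and wide kept ones in 16.3%, 20.8%, 28.4% (5000 bp) and 27.2%. The median width ratio was 1.17 (score), 1.19 (equal lengths), 1.18 (5000 bp) and 1.20 (tolerance). Split domains numbered 159 (score), 124 (equal lengths), 97 (5000 bp) and 551 (tolerance), and joined domains 610 and 265 with peaks joined over 1000 and 5000 bp, since joining closes the gaps counted. Gaps of E10.5 with H3K27ac were 21.6% (score) and 18.4% (5000 bp). With a ratio of 2, 12.2% of one-to-one domains widened and 3.79% narrowed. The settings for HOX13 peaks and gaps were applied after seeing the data.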

Other observations

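The X chromosome was left out of the comparison. It held 2479 of 17556 E10.5 H3K27me3 peaks (14.1%, 5.67 Mb), 9251 of 28875 wild-type E11.5 peaks (32.0%, 22.9 Mb) and 385 of 19358 double-mutant peaks (1.99%, 0.972 Mb). The labels do not give the sex of the embryos, and the part of sex in these shares was not tested.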
